A study of Mus musculus with 6 samples.

Results

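The nuclear-encoded subunits of the mitochondrial respiratory chain and ATP synthase were followed in cells sorted as mesenchyme from the mouse fetal liver on 2 days of late gestation. Members were chosen by gene symbol alone, as the protein-coding genes of the Nduf subunit, Sdh, Uqcr, Cyc1, Cox and Atp5 families. The rule found 87 of the 54532 genes in the deposited table: 38 of complex I, 4 of complex II, 9 of complex III, 18 of complex IV and 18 of complex V. These identifiers carry 86 distinct symbols, since Atp5o has a second gene model that is listed at 0 in every library. Some members are related proteins rather than structural subunits: Cox7a2l takes part in supercomplex assembly, Atp5s is a coupling factor, and the Ndufa4 protein, named as a complex I subunit, is found with complex IV.

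The animals were CD-1 embryos of genotype Sm22-Cre/ROSA26RYFP, whose livers were dissociated with collagenase IV and Dispase before eYFP-positive cells were sorted. The Sm22 promoter drives Cre in smooth muscle and related mesenchyme, and recombination leaves a lasting eYFP mark in those cells and their descendants. Cells were collected on embryonic day 16 (E16) and embryonic day 18 (E18), with 3 libraries a day lettered A, B and C, and both days share strain, genotype and sort. Total RNA was sequenced from stranded libraries. The labels do not name the litters or livers behind each library, so p-values measure spread among these libraries alone, and that spread may be technical.

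Expression is given as TPM, a transcript level scaled for gene length and library total. Where 3 values of a day follow each other, they are those of replicates A, B and C in that order. Recovered depth ran from 14587555 to 22626881 reads a library, and every E16 library was deeper than every E18 library. Markers of the labelled mesenchyme were low at E16 and higher at E18: smooth muscle markers summed to 22.1 to 59.6 TPM at E16 and 205 to 456 at E18, with 8 of 10 called higher, and mesenchymal and stellate markers to 384 to 740.3 TPM at E16 and 2052 to 5509 at E18, with 11 of 14 called higher. Tagln, the Sm22 gene itself, averaged 1.06 TPM at E16 and 3.14 at E18. RNA of other cell types was present in every library. Hepatocyte markers summed to 2411 to 9938 TPM at E16 and 434 to 1110.0 at E18, and erythroid markers to 7065 to 9248 TPM at E16 and 13299 to 21833 at E18, with 2 of 18 called higher. In the erythroid sum Hba-a1 alone averaged 2618 TPM at E16 and 8188 at E18. Of the 18 erythroid markers 14 were higher at E18 without overlap, Epb42, Gata1 and Klf1 overlapped, and Epor was lower without overlap. The sums were far lower for endothelial (27.5 to 41.0 TPM at E16 and 18.0 to 25.1 at E18), leukocyte (43.0 to 57.5 TPM at E16 and 52.9 to 122 at E18), megakaryocyte (27.8 to 65.0 TPM at E16 and 44.5 to 112 at E18), mesothelial (18.9 to 20.02 TPM at E16 and 68.2 to 120.0 at E18) and striated muscle markers (2.68 to 5.47 TPM at E16 and 5.05 to 21.9 at E18). Of 5 tested mesothelial markers 4 were called higher at E18, and of 5 tested leukocyte markers 3 (Lyz2, Retnlg and S100a9). Cd68 averaged 50.2 TPM at E16 and 80.8 at E18 with overlap, while the macrophage genes Adgre1 and C1qa were at 0 throughout. Most of the endothelial sum was Egfl7, which averaged 34.3 TPM at E16 and 16.9 at E18. The other endothelial markers were low, with a highest mean of 2.01 TPM (Tek, E18), and each mean was higher at E18. In such bulk samples, fewer cells of a type and less RNA per cell cannot be told apart.

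Oxidative phosphorylation runs in the inner mitochondrial membrane. Complexes I and II pass electrons to ubiquinone, complex III passes them to cytochrome c, complex IV reduces oxygen, and the protons pumped on the way drive ATP synthesis in complex V. Most subunits are encoded in the nucleus and imported, while the remainder are encoded in mitochondrial DNA. Several subunits have a widely expressed form and a paralog restricted to muscle, testis or hypoxic cells, and Ndufa4l2 is known as a target of hypoxia-inducible factor and as a gene expressed in pericytes.

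The coding sequences of Ndufa4l2 and its paralog Ndufa4 are shown because Ndufa4l2 differed most between the days while Ndufa4 did not share that difference. The coding part of Ndufa4l2 spans chr10:127514982-127516499 on the plus strand and that of Ndufa4 spans chr6:11900535-11907365 on the minus strand (GRCm38, GENCODE M21 transcripts). Capitals mark runs of at least 8 identical aligned bases.
Ndufa4l2: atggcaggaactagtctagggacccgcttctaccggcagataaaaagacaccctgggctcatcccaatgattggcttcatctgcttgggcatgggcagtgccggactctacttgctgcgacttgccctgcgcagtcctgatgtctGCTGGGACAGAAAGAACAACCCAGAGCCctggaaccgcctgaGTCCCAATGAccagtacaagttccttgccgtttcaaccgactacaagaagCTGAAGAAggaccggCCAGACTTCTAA
Ndufa4: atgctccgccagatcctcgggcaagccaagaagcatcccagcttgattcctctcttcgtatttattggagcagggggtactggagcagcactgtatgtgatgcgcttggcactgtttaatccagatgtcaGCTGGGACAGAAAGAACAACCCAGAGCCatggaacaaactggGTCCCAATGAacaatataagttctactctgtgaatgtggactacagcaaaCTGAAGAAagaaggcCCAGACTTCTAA
The frames hold 264 and 249 bases and were identical at 161 of 249 aligned positions (64.7%). The 4 runs in capitals all lie toward the 3′ end, and the longest run shared by any transcripts of the pair was 33 bases. No window of 50 bases of either gene occurs in a transcript of a gene elsewhere, so reads of this length tell the pair apart.

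Across the 5 complexes no member passed the test between the days. The filter of at least 1 TPM in at least 3 libraries kept 83 of the 87 members, and limma called 0 of these higher and 0 lower at E18 (Benjamini-Hochberg adjusted p under 0.05). Over all 17824 genes tested it called 549 higher (3.08%) and 69 lower (0.387%), which makes 3.47% in either direction, or 314 higher and 85 lower after quantile normalization. These totals leaned on single libraries: 55 genes were called without E16 replicate B, 664 without E18 replicate C, and 0 when any 1 of the other 4 libraries was left out. At an unadjusted p under 0.05 there were 5 members (Ndufa4l2, Sdhd, Cox7c, Atp5e and Atp5g1), where 20.9% of all tested genes were. With voom on recovered reads limma called 1 member, Ndufa4l2, against 8.22% of all genes, and with array weights it called 11, against 24.2% of all genes. These were 5 higher (Ndufa4l2, Ndufa1, Ndufa7, Ndufb2 and Cox6a1) and 6 lower (Ndufb9, Ndufc2, Sdhd, Cox5a, Cox7c and Atp5g1). On data simulated for this comparison the test recovered 13.1% of 2-fold, 57.3% of 4-fold and 70.0% of 8-fold changes. The simulation drew noise for each gene independently and changed few genes. Shifts shared by many genes of a library were not simulated, so recovery in the real data may differ.

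Differences between the days were small for most subunits. On the log2(TPM + 1) scale 77 of the 83 tested members lay within 0.5 of 0, and Ndufa4l2 was the single member beyond 1. The median log2 fold change (E18 over E16) was −0.16, against 0.07 over all tested genes, with 63 negative and 20 positive members (75.9% negative, against 43.0% of all tested genes). That balance moved with single libraries and with the model. Without E16 replicate B 40 of 83 were negative and the median was 0.01, and with both B libraries left out 25 were negative and the median was 0.11. With the hepatocyte marker score as a covariate 21 were negative and the median was 0.30. With array weights 48 were negative and the median was −0.06. The median was −0.26 without E16 replicate A, −0.04 without E18 replicate B and −0.25 without E18 replicate C. Under the 4 other scalings between 61 and 68 members were negative. Values of the days did not overlap for 9 members (10.8%), 2 higher and 7 lower at E18, while over all tested genes 26.5% did not overlap (18.4% higher and 8.05% lower).

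**Figure D1:**
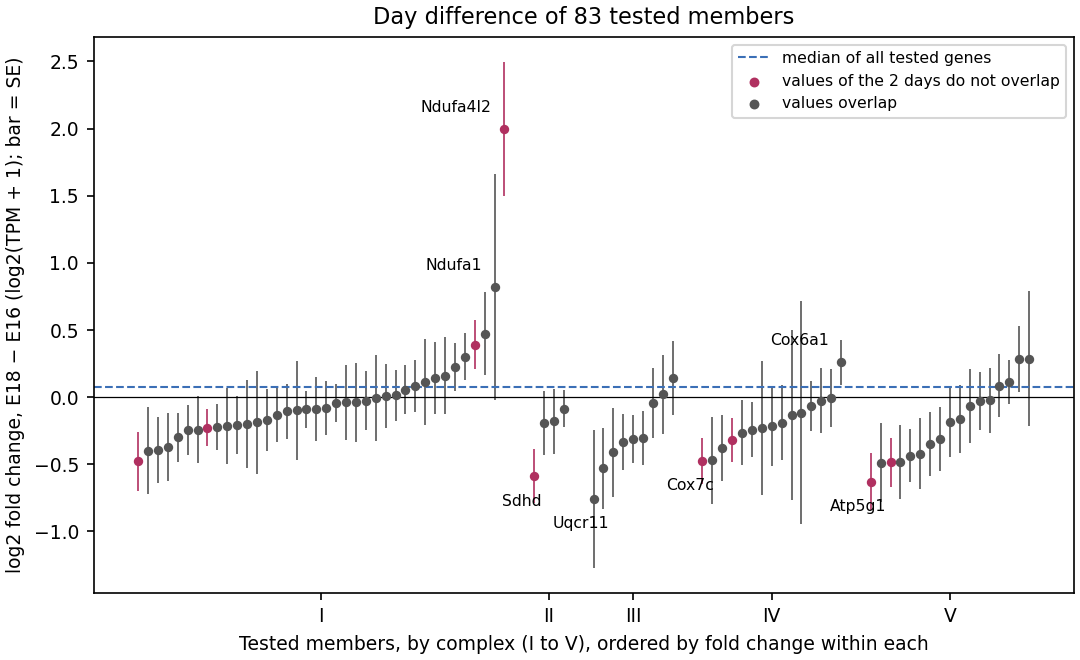
Log2 fold change (E18 over E16) of the 83 tested members by complex, with bars of 1 standard error; members whose values do not overlap between the days are in red, and the dashed line is the median of all tested genes (0.07). Ndufa4l2 stands at 1.997, and 77 members lie within 0.5 of 0.

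Members were high or low together by library. E16 replicate B held the highest value for 59 of 83 members (71.1%), against 22.4% of all tested genes. E18 replicate B held the lowest value for 43 members (51.8%), against 17.9% of all tested genes. Relative to each member's own mean, the median log2 deviation was −0.11, 0.42 and 0.00 at E16 and −0.06, −0.32 and 0.09 at E18. The same extremes were seen outside the chain: of the 8 other mitochondrial lists and the cytosolic ribosomal proteins, 7 had their highest summed TPM in E16 replicate B and their lowest in E18 replicate B. The cytosolic ribosomal sum was 35227, 59120.5 and 40110.1 TPM at E16 and 40093, 30512 and 49970.1 TPM at E18. Nuclear protein-coding genes held 43.2%, 57.9% and 50.5% at E16 and 52.5%, 51.2% and 54.7% at E18 of all TPM. Libraries of 1 day lay further apart than the median difference between the days. The hepatocyte marker sum, with 8 of 20 genes called lower, was 2985, 9938 and 2411 TPM at E16 and 434, 958 and 1110.0 TPM at E18. It was highest in E16 replicate B, as the members were, but lowest in E18 replicate A and not in E18 replicate B, which had the highest mesenchymal and stellate sum (5509 TPM). The hepatocyte sums did not overlap between the days, so the covariate fit cannot tell these markers and the day apart. The part of these cell types in the members' values was not tested.

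**Figure D2:**
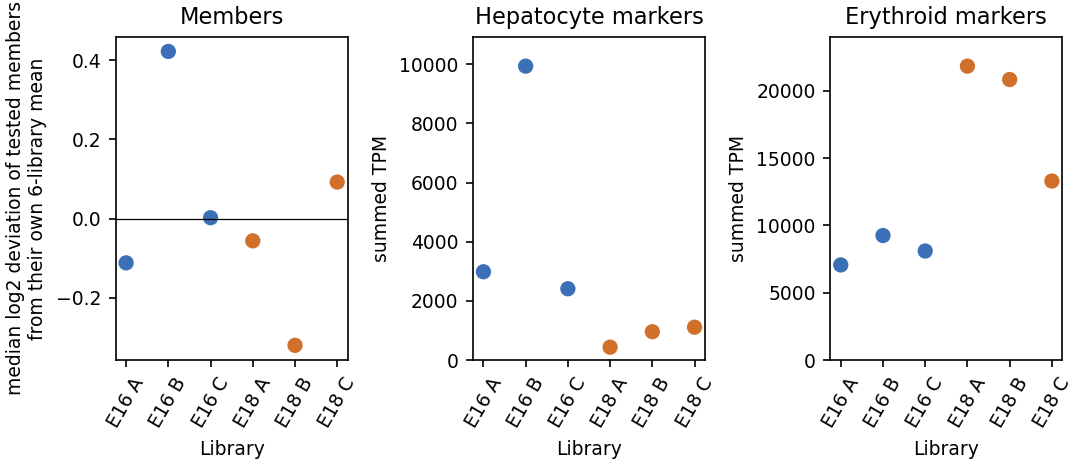
By library, the median log2 deviation of the 83 tested members from their own 6-library mean, and the summed TPM of the hepatocyte and erythroid markers. E16 replicate B is highest for the members (0.42) and for hepatocyte markers (9938 TPM), and E18 replicate B is lowest for the members (−0.32).

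Summed messages of each complex overlapped between the days. The complex I sum was 1579, 2505 and 1782 TPM at E16 and 1944, 1670.0 and 2279.8 TPM at E18. Complex II summed to 592 ± 119.7 TPM at E16 and 474 ± 67.6 at E18 (errors on sums are SDs over 3 libraries). Complex III summed to 1349 ± 386 TPM at E16 and 1079.9 ± 281 at E18, complex IV to 2052 ± 499.7 TPM at E16 and 1778 ± 338 at E18, and complex V to 2343 ± 606 TPM at E16 and 2020.0 ± 377 at E18. The E18 mean was 0.801 to 0.866 of the E16 mean for complexes II to V, and 1.005 for complex I. For complexes I, III, IV and V the gap was smaller than the SD of either day, and for complex II it lay between the 2 SDs. Without Ndufa4l2, left out after its values were seen, complex I summed to 1879.9 ± 432 TPM at E16 and 1711 ± 249.6 at E18. All members together held 1.51% to 1.84% of the TPM of nuclear protein-coding genes at E16 and 1.16% to 1.59% at E18.

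**Figure D3:**
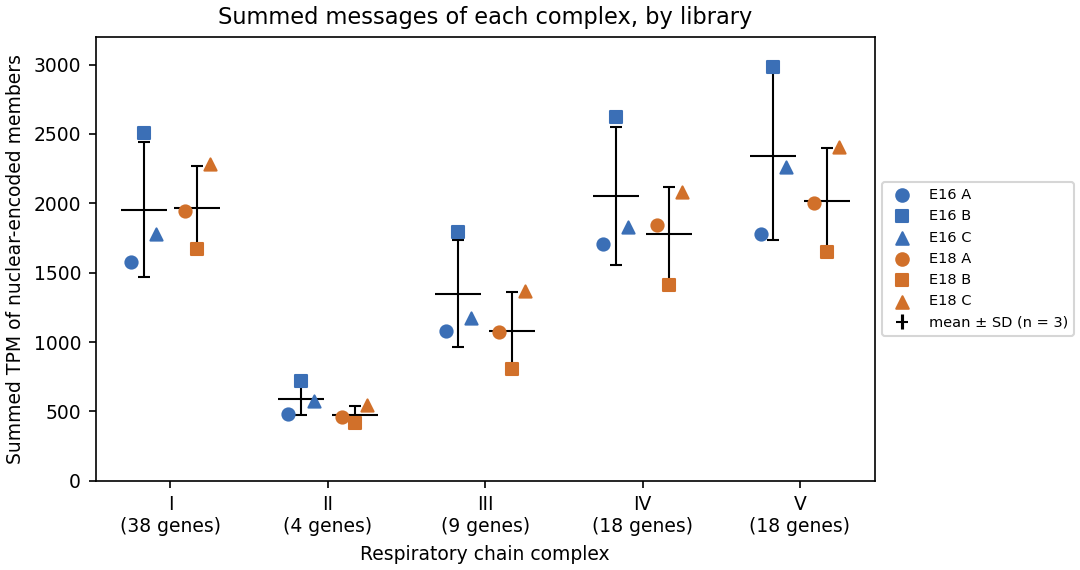
Summed TPM of the nuclear-encoded members of complexes I to V in each library, with the mean and SD of 3 libraries a day. E16 replicate B is the highest library in every complex, and E18 replicate B the lowest in complexes II to V.

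Complex I takes electrons from NADH. Over its 38 members the median fold was −0.09, or −0.17 with E16 replicate A left out, 0.11 with E16 replicate B left out, −0.03 with E18 replicate A left out, −0.02 with E18 replicate B left out and −0.15 with E18 replicate C left out. Its 7 nuclear core subunits, which bind flavin and the iron-sulfur clusters, had log2 fold changes from −0.39 to 0.01 with a median of −0.09, and none was called. Ndufv1, which binds NADH and flavin, had the highest mean TPM of the complex, at 131, 204 and 166 TPM at E16 and 154, 134 and 204 TPM at E18. Its values overlapped (log2 fold change −0.03 ± 0.22, SE; limma adjusted p = 0.965). Ndufs7 and Ndufs8, which carry iron-sulfur clusters close to the ubiquinone site, had the lowest folds of the core, −0.37 ± 0.25 and −0.39 ± 0.25. The largest core subunit, Ndufs1, averaged 38.9 ± 4.18 TPM at E16 and 36.4 ± 2.50 TPM at E18 (SD, n = 3 each).

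Ndufa4l2 (chr10:127514967-127517154, plus strand) differed most between the days. It stood at 51.4, 142 and 31.9 TPM at E16 and 252, 198 and 309.9 TPM at E18. Every E18 library was above every E16 library, and E16 replicate B came nearest to the later day. The mean was 75.2 ± 58.9 TPM at E16 and 253 ± 55.9 TPM at E18 (SD, n = 3 each). Its log2 fold change of 1.997 ± 0.50 missed the threshold (limma adjusted p = 0.0742). With limma, the adjusted p was 0.0176 by voom on recovered reads, 0.00491 with array weights and 0.0428 without E16 replicate B (log2 fold change 2.59). Under the other 18 alternatives it ran from 0.0597 to 1, with log2 fold changes from 1.52 to 3.86. Recovered reads numbered 384, 1035 and 226 in the E16 libraries and 1218, 992 and 1875 in the E18 libraries. Mesenchymal and stellate markers were higher at E18 too, among them the pericyte gene Rgs5 at 0.225, 0.795 and 1.29 TPM at E16 and 11.9, 17.9 and 7.17 TPM at E18 (limma adjusted p = 0.0314), and their part in the Ndufa4l2 difference was not tested.

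Its paralog Ndufa4 (chr6:11900292-11907497, minus strand) stood at 21.4, 19.5 and 28.1 TPM at E16 and 25.1, 17.7 and 19.8 TPM at E18. These values overlapped (log2 fold change −0.13 ± 0.20, limma adjusted p = 0.780). As a share of the summed TPM of the pair, Ndufa4l2 made up 70.6%, 87.9% and 53.2% at E16 and 90.9%, 91.8% and 94.0% at E18. It exceeded Ndufa4 in all 6 libraries, and its share was higher in every E18 library than in any E16 library.

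**Figure D4:**
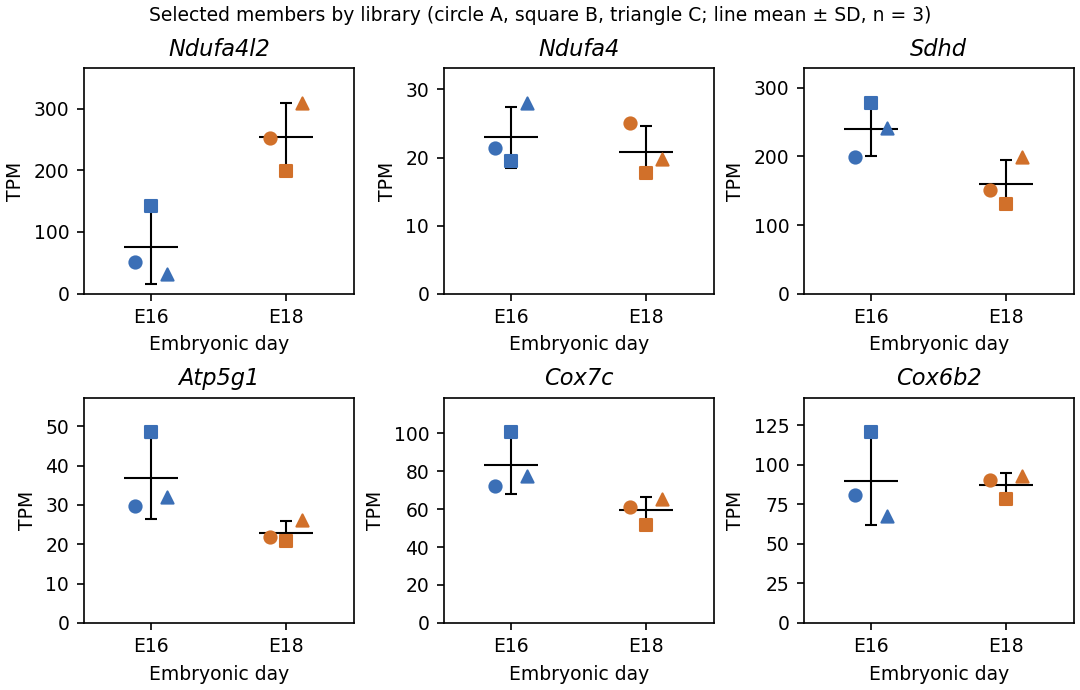
TPM in each library for Ndufa4l2, Ndufa4, Sdhd, Atp5g1, Cox7c and Cox6b2, with the mean and SD of 3 libraries a day. Ndufa4l2 spans 31.9 to 142 TPM at E16 and 198 to 309.9 at E18, Sdhd, Atp5g1 and Cox7c lie lower at E18 without overlap, and none of the 6 genes passed the test.

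Accessory subunits of complex I surround and stabilize the core. The 31 members counted as such had 20 negative and 11 positive folds. Ndufa4l2 and Ndufa4 are included there by symbol alone. Ndufa7 was the other member with higher values at E18 and no overlap, at 20.9, 21.7 and 18.5 TPM at E16 and 26.4, 22.6 and 32.9 TPM at E18 (log2 fold change 0.39 ± 0.18, limma adjusted p = 0.275). Ndufb5, of the membrane arm, was at 18.8, 23.1 and 20.2 TPM at E16 and 15.6, 10.9 and 18.1 TPM at E18. Its days did not overlap, and its fold of −0.48 ± 0.22 was the lowest in the complex (limma adjusted p = 0.279). Ndufb9, also of the membrane arm, was at 32.1, 33.1 and 33.1 TPM at E16 and 24.8, 30.8 and 28.3 TPM at E18, lower at E18 without overlap (limma adjusted p = 0.417). Ndufa7 and Ndufb9, like Cox5a and Atp5e among the later complexes, are named for not overlapping and were chosen after their values were seen. With array weights limma called Ndufa7 higher and Ndufb9 lower. Ndufa8, a subunit with disulfide bonds on the intermembrane side, was at 95.8, 242 and 142 TPM at E16 and 109, 95.8 and 136 TPM at E18, where E16 replicate B stood alone. Its fold was −0.40 ± 0.32, and −0.05 without that library.

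Ndufa1, a small membrane subunit encoded on the X chromosome, had the second highest fold of all members, 0.82 ± 0.84 (limma adjusted p = 0.658, and 0.0397 with array weights). It was at 5.24, 1.44 and 0.369 TPM at E16 and 9.73, 0.522 and 6.05 TPM at E18, from 1 to 18 recovered reads a library. Each day had a library under 1 TPM and another above 5, so the fold was within the spread of a day. Over the 6 libraries the means of complex I members ran from 3.89 TPM (Ndufa1) to 166 TPM (Ndufv1).

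Complex II oxidizes succinate in the citric acid cycle and is encoded in the nucleus alone. All 4 of its genes had negative folds, with a median of −0.19. That median was −0.40 with E16 replicate A left out, 0.02 with E16 replicate B left out, −0.10 with E18 replicate B left out and −0.28 with E18 replicate C left out, and E16 replicate B was the highest library for each gene. Sdhd (chr9:50596357-50603812), a membrane anchor that helps to bind ubiquinone, stood at 199, 278 and 241 TPM at E16 and 151, 130.1 and 199 TPM at E18. The days did not overlap, although E16 replicate A (199.5 TPM) and E18 replicate C (198.9 TPM) were nearly equal. Its fold of −0.59 ± 0.20 did not pass (limma adjusted p = 0.150), while with array weights limma called it lower (adjusted p = 0.0121).

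Sdha, the flavoprotein with the catalytic site, was at 145, 179 and 152 TPM at E16 and 150.1, 134 and 164 TPM at E18. The iron-sulfur subunit Sdhb was at 90.5, 177 and 119 TPM at E16 and 104, 105 and 117 TPM at E18. The other anchor, Sdhc, was at 47.1, 84.6 and 63.5 TPM at E16 and 55.8, 45.5 and 68.2 TPM at E18. These 3 genes overlapped between the days, with log2 fold changes of −0.09, −0.19 and −0.18. Sdhd thus had the lowest fold of the complex, and its difference from the other 3 genes was not tested.

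Complex III carries electrons from ubiquinol to cytochrome c. Of its 9 members 7 had negative and 2 positive folds, with a median of −0.31, and none was called or free of overlap. That median was −0.16 with E16 replicate B left out and −0.13 with E18 replicate B left out. Uqcr10, a small subunit, had the highest level, at 324, 559.9 and 345 TPM at E16 and 309.6, 198 and 434 TPM at E18. Uqcrc1, a core protein that does not carry electrons, was at 178, 248 and 208 TPM at E16 and 159, 149 and 202 TPM at E18. In both genes E16 replicate B was highest and E18 replicate B lowest. The redox subunits Cyc1 (cytochrome c1) and Uqcrfs1 (the Rieske protein) overlapped too, Cyc1 averaging 181 ± 26.3 TPM at E16 and 148 ± 32.7 TPM at E18 (SD, n = 3 each) and Uqcrfs1 126 ± 45.1 TPM at E16 and 118 ± 19.2 TPM at E18.

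Small subunits held both ends of the range in complex III. Uqcr11 had the lowest fold of all members, −0.76 ± 0.51 (limma adjusted p = 0.474), at 68.1, 154 and 63.8 TPM at E16 and 51.3, 26.6 and 98.8 TPM at E18. The B libraries were its extremes, and with both left out the fold was 0.11. Uqcrq, which helps to hold the ubiquinone site, was at 65.9, 131 and 80.1 TPM at E16 and 65.1, 44.1 and 79.0 TPM at E18 (−0.53 ± 0.30). The hinge protein gene Uqcrh had the highest fold, 0.14 ± 0.28, at 44.7, 76.7 and 42.3 TPM at E16 and 61.7, 43.9 and 72.6 TPM at E18. Uqcrb, which contacts the ubiquinone site, was at 54.2, 73.9 and 30.8 TPM at E16 and 51.2, 49.7 and 50.8 TPM at E18 (0.02 ± 0.29), and its 3 E18 values were nearly equal while the E16 values spread on both sides of them. Of its 50-base transcript windows 25.4% occur in 4 pseudogenes elsewhere, so its level is uncertain.

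Complex IV, cytochrome c oxidase, passes electrons to oxygen, and its catalytic subunits are encoded in mitochondrial DNA. Of its 18 nuclear members 15 passed the filter, 14 with negative folds and 1 with a positive one, and the median was −0.21, or −0.12 with E16 replicate B left out and −0.06 with E18 replicate B left out. Cox8a, a small membrane subunit, had the highest level, at 349, 540.3 and 398 TPM at E16 and 356, 313 and 406 TPM at E18. Cox6b1, which faces the intermembrane space and joins the complex into dimers, was at 239.7, 488 and 267 TPM at E16 and 271, 219 and 337 TPM at E18. Both overlapped between the days, with E16 replicate B highest and E18 replicate B lowest. Cox6a1 had the positive fold, 0.26 ± 0.17 (limma adjusted p = 0.448, and 0.0357 with array weights), at 145, 153 and 134 TPM at E16 and 184, 138 and 202 TPM at E18.

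In complex IV, Cox7c and Cox5a were lower at E18 without overlap and did not pass, though limma called both lower with array weights (Cox7c adjusted p = 0.0385). Cox7c (chr13:86044816-86046904), a small membrane subunit, was at 72.0, 101 and 77.4 TPM at E16 and 60.9, 51.6 and 65.5 TPM at E18 (log2 fold change −0.48 ± 0.17, limma adjusted p = 0.164). Of its 50-base transcript windows 22.1% occur in 3 pseudogenes elsewhere, so its level is uncertain. Cox5a, a matrix-side subunit, was at 19.0, 21.6 and 21.8 TPM at E16 and 15.0, 18.5 and 16.1 TPM at E18 (−0.32 ± 0.16, limma adjusted p = 0.333). Cox7b, another small membrane subunit, was at 221, 271 and 184 TPM at E16 and 219.7, 95.3 and 197 TPM at E18, with E18 replicate B far under the rest. Its fold was −0.47 ± 0.32, and −0.10 without that library.

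Restricted isoforms of complex IV were mostly scarce. The muscle form Cox6a2 and the testis form Cox8c were at 0 in every library, and the testis form Cox7b2 rested on 1 recovered read, in E16 replicate B. Cox4i2, the lung and hypoxia form of subunit 4, was at 2.04, 2.102 and 2.16 TPM at E16 and 4.601, 3.05 and 0 TPM at E18, and its partner Cox4i1 was at 204, 323 and 210.2 TPM at E16 and 212, 152 and 289 TPM at E18. Cox4i2 made up at most 2.13% of the pair. Cox8b, a muscle form, was at 3.25, 1.25 and 3.43 TPM at E16 and 10.1, 0 and 2.01 TPM at E18, at most 2.75% of its pair with Cox8a. The heart and muscle form Cox7a1 was at 7.66, 3.66 and 11.0 TPM at E16 and 6.78, 9.40 and 2.71 TPM at E18, and its partner Cox7a2 was at 80.7, 141 and 82.3 TPM at E16 and 78.7, 61.9 and 86.9 TPM at E18. Cox7a1 made up 2.53% to 13.2% of that pair. Cox4i2, Cox7a1 and Cox8b each rest on under 20 recovered reads in at least 1 library; that number of reads limits the precision of these values, and none of the 3 genes was called.

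Cox6b2 (chr7:4751792-4753094, minus strand) was the exception. Known as the testis form of subunit 6b, it stood at 81.2, 121 and 67.6 TPM at E16 and 90.2, 78.4 and 92.9 TPM at E18. The days overlapped, and the log2 fold change was 0.00 ± 0.22 (limma adjusted p = 0.995). Its share of the pair with Cox6b1 was 25.3%, 19.9% and 20.2% at E16 and 24.99%, 26.3% and 21.6% at E18. It rested on 397 to 890 recovered reads a library, none of its exon length lies under another gene, and none of its windows occur elsewhere.

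Complex V makes ATP as protons turn its c ring. Of its 17 tested members 13 had negative and 4 positive folds, with a median of −0.18. It was −0.42 with E16 replicate A left out, −0.03 with E16 replicate B left out, −0.06 with E18 replicate B left out and −0.30 with E18 replicate C left out. Atp5b, the catalytic beta subunit, had the highest level of all members, at 569, 958 and 744 TPM at E16 and 673, 543 and 791 TPM at E18. Atp5a1, the alpha subunit, was at 402, 725 and 595 TPM at E16 and 480.3, 411 and 599 TPM at E18. Both overlapped between the days (−0.16 ± 0.25 and −0.18 ± 0.26). Atp5e, the small epsilon subunit of the central stalk, was at 29.7, 29.9 and 24.1 TPM at E16 and 22.3, 16.1 and 20.8 TPM at E18, lower at E18 without overlap but not called (−0.48 ± 0.18, limma adjusted p = 0.187).

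The c ring is built from a subunit that 3 genes encode, with the same mature protein and different import sequences. Atp5g1 (chr11:96068852-96075670) was at 29.8, 48.6 and 32.0 TPM at E16 and 21.8, 20.9 and 26.2 TPM at E18. Its days did not overlap, and the log2 fold change of −0.63 ± 0.21 did not pass (limma adjusted p = 0.151), while with array weights limma called it lower (adjusted p = 0.0258). Atp5g2 was at 35.7, 57.0 and 41.0 TPM at E16 and 33.1, 26.9 and 44.4 TPM at E18 (−0.35 ± 0.24). Atp5g3 was at 174, 296 and 217 TPM at E16 and 152, 121 and 221 TPM at E18 (−0.48 ± 0.27). All 3 folds were negative, and the summed TPM of the 3 genes at E18 was 0.717 of that at E16, with E16 replicate B highest and E18 replicate B lowest in each. Atp5g3 supplied 73.7% ± 1.09 (SD, n = 3 each) of their summed TPM at E16 and 73.6% ± 2.06 on the later day. TPM is scaled for merged exon length, 4912 bases for Atp5g1, 1675 for Atp5g2 and 2181 for Atp5g3, so these shares depend on gene models. In E16 replicate A their recovered reads numbered 998, 408 and 2590 in that order. Atp5g1 and Atp5g2 share 11.1% and 36.7% of their windows with genes elsewhere, so their levels are uncertain.

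Atp5j, of the peripheral stalk, was at 16.0, 13.1 and 14.9 TPM at E16 and 16.2, 8.46 and 7.58 TPM at E18 (−0.49 ± 0.30), with E18 replicate A just above the E16 values and the other E18 libraries under them. Atp5k, a small membrane subunit, was at 5.23, 3.67 and 4.51 TPM at E16 and 13.2, 4.62 and 2.64 TPM at E18 (0.29 ± 0.50), where E18 replicate A alone was high. The coupling factor gene Atp5s was at 9.55, 10.04 and 11.2 TPM at E16 and 12.1, 17.3 and 9.76 TPM at E18 (0.29 ± 0.25). Atpif1, which encodes the inhibitor of ATP synthase and is not a member by symbol, was at 50.7, 55.7 and 51.9 TPM at E16 and 57.2, 56.8 and 66.1 TPM at E18, higher at E18 without overlap but not called (0.18 ± 0.12, limma adjusted p = 0.477). Member means ran from 5.65 TPM (Atp5k) to 713 TPM (Atp5b).

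Other mitochondrial genes likewise held 0 limma calls, in each of 8 lists, against 3.47% of all tested genes. The lists hold 7 to 77 tested genes, so at that share few calls would fall in any of them. Of 47 tested assembly factors 37 had negative folds (median −0.22), and the smallest p belonged to Ecsit, of complex I assembly, and Coa4, of complex IV assembly (limma adjusted p = 0.11 and 0.115). Of 13 mitochondrially encoded subunits 12 were negative (median −0.28), with mt-Nd3 of complex I at 153, 146 and 158 TPM at E16 and 85.9, 40.9 and 131 TPM at E18 and mt-Co3 of complex IV at 813, 769 and 605 TPM at E16 and 533, 318 and 647 TPM at E18 (limma adjusted p = 0.20 and 0.299). Of 77 mitochondrial ribosomal proteins 73 were negative (median −0.36), and Mrps27 averaged 34.9 ± 8.82 TPM at E16 and 17.3 ± 1.23 TPM at E18 (SD, n = 3 each; limma adjusted p = 0.0549), while Mrpl44 had 0.112. Of 22 import genes 20 were negative (median −0.39), with Timm8a1 and Tomm5 at the smallest p (limma adjusted p = 0.0883 and 0.113). The citric acid cycle list had 16 of 20 negative (median −0.26), with Dlat and Suclg2 at the smallest p (limma adjusted p = 0.199 and 0.160). Electron carriers and ubiquinone synthesis had 14 of 20 negative (median −0.19), and the smallest p belonged to Coq8b, higher at E18 without overlap (0.97 ± 0.27, limma adjusted p = 0.0913), and Coq7, lower without overlap (−0.57 ± 0.24, limma adjusted p = 0.232). Among carriers of ADP, phosphate and protons 6 of 7 were negative (median −0.30), and the smallest p belonged to Vdac2 (−0.49 ± 0.21, limma adjusted p = 0.243) and to Ucp2, the gene with the positive fold (0.29 ± 0.14, limma adjusted p = 0.304). Without E16 replicate B these 7 medians lay between −0.31 and −0.14, where that of the nuclear subunits was 0.01.

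Regulators of mitochondrial biogenesis had 14 of 22 negative folds and a median of −0.14. The mitochondrial RNA polymerase gene Polrmt was at 57.3, 61.5 and 51.1 TPM at E16 and 34.3, 34.1 and 42.1 TPM at E18, lower at E18 without overlap but short of the threshold (−0.61 ± 0.14, limma adjusted p = 0.0650). Tfam, which packages and transcribes mitochondrial DNA, was at 31.6, 36.7 and 34.3 TPM at E16 and 25.3, 20.1 and 27.2 TPM at E18, also without overlap (limma adjusted p = 0.138). Cytosolic ribosomal proteins, another set of short and abundant messages, had 66 of 80 negative folds and a median of −0.19, which was −0.02 without E16 replicate B, and again 0 were called (Rpl13a and Rps12 had limma adjusted p = 0.101 and 0.0523).

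Promoters of the members were read for words bound by factors known to act on respiratory genes. Any part of these factors in the members' values was not tested. RefSeq promoters (GRCm38.p6) matched 67 of the 86 symbols, and the 250 bases before each start were searched on both strands. The palindrome of nuclear respiratory factor 1, GCGCA followed directly by its reverse complement, was in 4 of them (5.97%), against 0.877% of all 27025 genes. The ETS word CCGGAAG was in 17.9% of members, against 7.83% of all genes. For the hypoxia response core ACGTG the shares were 19.4% and 18.5%, for CCAAT 43.3% and 37.5%, and for the GC box GGGCGG 35.8% and 35.4%. Ndufa4l2, which had no promoter among the 67, was not searched for any of these words. A match describes these letters and is not a binding site. The promoters with that palindrome are shown with it in capitals: Atp5g2 (chr15:102671048-102671297, minus strand), Atp5k (chr5:108434400-108434649, minus strand), Cox6a1 (chr5:115348959-115349208, minus strand) and Ndufa11 (chr17:56717512-56717761, plus strand).
Atp5g2: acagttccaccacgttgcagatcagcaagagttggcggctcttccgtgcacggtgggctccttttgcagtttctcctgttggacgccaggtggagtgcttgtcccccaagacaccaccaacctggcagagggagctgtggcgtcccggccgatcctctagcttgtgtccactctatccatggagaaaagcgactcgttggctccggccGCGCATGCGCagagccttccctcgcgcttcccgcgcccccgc
Atp5k: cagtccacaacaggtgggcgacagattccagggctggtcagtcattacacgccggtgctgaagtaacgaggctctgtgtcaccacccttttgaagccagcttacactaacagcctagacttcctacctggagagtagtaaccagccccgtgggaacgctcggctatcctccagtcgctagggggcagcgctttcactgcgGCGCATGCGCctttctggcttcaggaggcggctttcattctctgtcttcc
Cox6a1: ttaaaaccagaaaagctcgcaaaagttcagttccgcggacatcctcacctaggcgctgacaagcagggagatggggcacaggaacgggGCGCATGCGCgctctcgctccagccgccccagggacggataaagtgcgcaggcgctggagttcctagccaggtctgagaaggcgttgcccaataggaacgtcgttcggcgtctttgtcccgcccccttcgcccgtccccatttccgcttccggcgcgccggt
Ndufa11: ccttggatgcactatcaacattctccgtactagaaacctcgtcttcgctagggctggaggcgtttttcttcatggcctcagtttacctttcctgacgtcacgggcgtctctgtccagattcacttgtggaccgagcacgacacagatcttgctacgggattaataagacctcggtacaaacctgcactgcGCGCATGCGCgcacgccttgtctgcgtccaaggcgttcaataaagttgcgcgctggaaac
The palindrome begins 42, 50, 162 and 60 bases before the gene start in this order. Log2 fold changes of the 4 genes were −0.35, 0.29, 0.26 and −0.19, on both sides of 0.

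Member messages were short, with a median merged exon length of 1587 bases against 3123 over all tested genes. Across the 83 members, which share libraries and are not independent replicates, Pearson's r with log2 length was −0.07 for the log2 fold change and −0.02 for the log2 mean level. Copies elsewhere in the genome bear on some levels: 42 of 87 members share at least 1 window of 50 bases with a gene outside their locus, and 12 share at least 10% of their windows. The sources used here do not say how reads that fit several places were counted.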

How the data were processed

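RNA was measured in 6 libraries, 3 at E16 and 3 at E18. The authors deposited a table of TPM per gene identifier. Per the submitters' processing notes, FastQC 0.11.7, HISAT2 2.1.0, Bowtie, HTSeq 0.5.4p3 and mm10 were used, while the sources used here do not give their roles, the annotation or how TPM was computed. Symbols came from GENCODE M21 (GRCm38), which lacks 37 of the deposited identifiers. TPM times merged exon length gave whole reads (within 0.05) for 96.8% to 97.1% of values.

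The test was limma 3.58.1 (R 4.3.3) on log2(TPM + 1) over all 6 libraries, with intensity trend, 2-sided, and Benjamini-Hochberg adjustment over the 17824 genes reaching 1 TPM in 3 or more libraries. Fold changes are on that log2 scale, which understates those of low genes. The script was tested on simulated data. The symbol rule for the members and the genes of the lists were set with earlier results of these data known. Values in every library are printed for the isoform pairs and, in each complex, for the 2 members with the highest mean TPM, the 2 highest and the 2 lowest folds, and in each pathway list the 2 genes with the smallest p are named. Alternatives covered pseudocounts, filters, scalings, models and left-out libraries.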

Additional observations from a re-analysis of the deposited data

How the results depend on the processing

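Counts of called genes moved with most settings. The total, higher and lower counts were 347, 305 and 42 with a pseudocount of 5, and 0, 0 and 0 with no filter on low values. With a filter of 5 TPM the total was 406 (360 higher), and with quantile normalization 399 (314 higher), which moved the median of all genes from 0.07 to −0.08. Genes called lower numbered 105 with median-of-ratios scaling and 114 when rescaled to nuclear protein-coding genes. Array weights gave a total of 4316, with 2795 genes called higher and 1521 genes called lower, with 5 members higher and 6 lower, and voom on recovered reads 1465, 1291 and 174, with 1 member higher. With the hepatocyte or the erythroid score as covariate, or with both B libraries left out (chosen after seeing the data), 0 genes were called. The cause of these moves was not tested.

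With the letter as replicate block 0 genes were called, and the Ndufa4l2 adjusted p by limma was 0.147. Same-letter deviations correlated at 0.10, −0.14 and −0.12, within the range of −0.15 to 0.22 of different letters, so no pairing was detected, and the labels do not say what the letters mark. Leaving out single libraries gave 0 to 664 calls, 0 to 531 higher and 0 to 133 lower, and 0 to 1 member called higher (Ndufa4l2, without E16 replicate B).

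The hepatocyte covariate gave member medians of 0.30 overall and 0.36, 0.31, 0.33, 0.30 and 0.19 for complexes I to V, and 50 of 83 members changed sign. Hepatocyte marker sums did not overlap between the days, so this fit cannot tell them and the day apart. With both B libraries left out 38 changed sign, the medians of complexes I, II and III were 0.18, 0.084 and 0.11, and the log2 ratios of summed TPM were 0.33, −0.068, 0.11, 0.15 and 0.12 for complexes I to V. Without E16 replicate B 25 changed sign. Depth limits the precision of Ndufa1, Cox4i2, Cox7a1, Cox8b and Atp5k, which rest on under 20 recovered reads in at least 1 library.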
